A study of Mus musculus with 9 samples.

Results

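The expression of 39 genes of the cell cycle and of DNA replication was examined in mouse peritoneal macrophages by RNA sequencing. The genes were chosen by name for their part in cell division, and all 39 were found among the 54059 genes of the deposited table by their Ensembl identifiers. They comprised 2 proliferation markers, 4 cyclin-dependent kinases (CDKs), 5 cyclins of the A, B and E types, 3 D cyclins, 9 regulators of mitosis, 10 genes of replication and nucleotide supply, 2 transcription factors and 4 CDK inhibitors.

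There were 3 groups of 3 libraries, and the labels give C57BL/6 as the strain and 8 weeks as the age in each. The wild-type group came from wild-type mice. The M-*Shp2*-/- group (SHP2lyz2-/- in the labels) came from mice in which Cre, driven by the *Lyz2* promoter, deletes floxed *Shp2* in myeloid cells, so that monocytes and granulocytes also carry the deletion. The SHP099 group came from wild-type mice, and its cells were pretreated with 10 µM SHP099, an allosteric inhibitor of the phosphatase SHP2, for 2 h. All mice received 1 ml of starch broth intraperitoneally and were lavaged 3 days later, and the adherent cells of all groups were exposed to 10 µg/ml imiquimod (IMQ, a TLR7 agonist) for 4 h. The exposure to IMQ and the dose and time of SHP099 are described in the study's methods and figure legends. The labels name SHP099 but do not give these details. No library without IMQ was analysed here. The labels do not say whether the libraries of a group came from separate mice, so the p-values below measure only the spread between these samples.

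A dividing cell first makes D cyclins, which join CDK4 or CDK6 in response to growth signals, and then cyclin E, which joins CDK2. Together these kinases release E2F transcription factors from the retinoblastoma protein, E2F turns on the genes of DNA replication, and cyclins A and B with CDK1 then carry the cell through mitosis, while CDK inhibitors such as p21 and p27 hold the kinases back. Most mature macrophages are outside the cycle, although resident macrophages of the peritoneal cavity can renew themselves by division, and SHP2 is known for passing growth factor signals to the Ras and ERK pathway.

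Levels are given as FPKM, fragments scaled to gene length and to sequencing depth, so that levels can also be compared between genes. The depth recovered from the values was 39842751 to 50980517 reads per library. For each comparison, limma was fitted to log2(FPKM + 1) of 6 libraries, over the 11450 genes whose FPKM averaged 1 or more across all 9. A gene passed at a Benjamini-Hochberg adjusted p of at most 0.05 over all genes tested. Of the 39 cell cycle genes, 37 entered the test. *Ccnd1* and *Kif11* had lower means. Because 1 is added to the FPKM, the fold changes of genes of low level are understated.

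*Ptpn11*, the gene of SHP2, had an FPKM of 45.8, 44.0 and 40.0 in the wild-type, 18.6, 17.8 and 18.9 in the M-*Shp2*-/- and 43.0, 42.1 and 39.6 in the SHP099 libraries. The 3 M-*Shp2*-/- libraries thus lay below all 6 others, in keeping with their labels.

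Markers of the cells were read next. The summed FPKM of 8 macrophage markers was 7468 to 13740 per library, most of it from *Lyz2*. *Lyz2*, whose promoter drives the Cre, had an FPKM of 7440, 10228 and 7951 in the wild-type, 4863, 4743 and 5407 in the M-*Shp2*-/- and 9348, 10280 and 10715 in the SHP099 libraries. The M-*Shp2*-/- libraries lay below the others, and the log2 fold change against wild type was -0.76 (SE 0.16, adjusted p = 0.388). Against wild type, the log2 fold change lay below 0 for 6 of the 8 macrophage markers in M-*Shp2*-/- and for 5 with SHP099, with medians of -0.44 and -0.23 beside 0.15 and 0.13 over all genes. With SHP099, *Cd68* lay wholly below wild type, at 1211 to 1271 against 1294 to 1498, and *Csf1r* wholly above (2 of 8, beside 34.6% of all genes). In M-*Shp2*-/-, *Lyz2* and *Mertk* lay wholly below wild type (2 of 8, beside 3.07% of all genes) and 0 wholly above. Against SHP099, *Lyz2*, *Mertk* and *Csf1r* lay wholly below (3 of 8, beside 9.76%) and 0 wholly above. *Cd68*, *Csf1r* and *Mertk* are named after their values were seen. The test was passed by 1 of 8 with SHP099 (12.5%, beside 6.96% of all genes), *Csf1r*, which rose from a mean FPKM of 78.9 ± 27.9 to 199 ± 16.0 (SD, n = 3 per group; log2 fold change 1.38, SE 0.22, adjusted p = 0.0222). In M-*Shp2*-/- against wild type and against SHP099, limma called 0 of the 8, beside 0.0873% and 0.0699% of all genes, with 2 and 2 at an unadjusted p under 0.05, beside 10.5% and 12.6%. Voom on the recovered reads called 0 and 1 in these comparisons, the latter *Lyz2*, which was lower in M-*Shp2*-/- than with SHP099 (log2 fold change -1.02, adjusted p = 0.0555 with limma). Markers of resident peritoneal macrophages were low, with a sum of 8.16 to 24.1 over 5 genes, *Cxcl13* as the most abundant and *Timd4* at a mean below 1.

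Other cell types of the peritoneal cavity were represented by lower sums. The 6 T cell markers summed to 1.88 to 7.72, with *Lck* as the most abundant and the other 5 at a mean below 1. The 5 B cell markers summed to 9.91 to 178, and most of it was *Ighm*, at an FPKM of 175 in the library M-*Shp2*-/- 3 and at most 44.8 elsewhere, while *Ms4a1*, *Cd79a* and *Cd79b* had means below 1. The 6 neutrophil markers summed to 45.8 to 107.5, led by *S100a8*, whereas *Ly6g*, *S100a9* and *Retnlg* had means below 1. Mast cell markers (5 genes, led by *Kit*) summed to 0.564 to 6.10. Eosinophil markers (4 genes, led by *Siglecf*, with *Ear6* listed at 0 in all 9 libraries) and markers of conventional dendritic cells (5 genes, led by *Zbtb46*) had means below 1 throughout, with sums of 0.0116 to 0.720 and of 0.619 to 1.83. The mast cell, eosinophil and dendritic cell sums of all 3 SHP099 libraries lay below those of the 6 other libraries.

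Fibroblast markers also differed between libraries. Their sum over 6 genes was 63.8, 302 and 39.8 in the wild-type, 134 (replicate 1), 51.4 and 586 in the M-*Shp2*-/- and 361, 137 and 101 in the SHP099 libraries, a range of 14.7-fold, with *Col1a1* as the most abundant and *Lum* at a mean below 1. The highest library of each group was therefore wild type 2, M-*Shp2*-/- 3 and SHP099 1. The sum of 5 mesothelial markers, led by *Wt1*, was highest in the same libraries, at 8.65, 11.3 and 8.07 against 1.85 to 6.14 in the other 6, and *Msln*, *Upk3b* and *Krt19* had means below 1. No fibroblast or mesothelial marker passed the test in any comparison (limma, 7 genes tested, 0 at an unadjusted p under 0.05 and 0 with voom), beside 0.0873%, 6.96% and 0.0699% of all genes for M-*Shp2*-/- and SHP099 against wild type and for these groups against each other, and 10.5%, 26.7% and 12.6% at the unadjusted p.

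Some libraries also stood apart over all genes tested. The median absolute log2 difference of M-*Shp2*-/- 3 was 0.27 to M-*Shp2*-/- 1 and 0.27 to M-*Shp2*-/- 2, whereas these differed from each other by 0.10. All 6 libraries of the other groups were nearer to M-*Shp2*-/- 3 than those of its own group, at 0.23, 0.18 and 0.27 for wild type and 0.18, 0.19 and 0.15 for SHP099, although for wild type 3 the difference was only in the third decimal (0.267 against 0.271). Wild type 3 differed from wild type 1 by 0.28 and from wild type 2 by 0.26, against 0.14 between those 2 libraries. Counts and medians of the cell cycle genes, and counts over all genes, are given with and without these libraries. For the wider lists and the cell markers, only values with all libraries are given.

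Against wild type, the M-*Shp2*-/- macrophages showed no cell cycle gene that passed the test. The count was 0 of 37 with limma, where 0.0873% of all genes tested passed. At an unadjusted p under 0.05 it was 6 of 37, beside 10.5% of all genes, and limma's voom on the recovered reads gave 0. In 6 of the 37 genes the groups did not overlap, *Cdk2*, *Cdk4*, *Pcna*, *Mcm3* and *Cdkn1b* with all M-*Shp2*-/- libraries above and *Ccnd2* with all below, beside 19.1% of all genes (16.0% above and 3.07% below). The median log2 fold change of the 37 was 0.37 against 0.15 over all genes, and 30 lay above the median of all genes. Scaling by the median of ratios moved the median over all genes to 0.01 and that of the 37 to 0.26. Without M-*Shp2*-/- 3 the values were 0.17 (cell cycle genes) and 0.18 (all genes), and without wild type 3 they were 0.14 and 0.08. The median of the 37 genes was 0.62 without wild type 2 and 0.56 without M-*Shp2*-/- 2. The 10 genes that passed among all genes became 2 without wild type 1, 1 without wild type 2, 5 without wild type 3, and 1 without M-*Shp2*-/- 1 or M-*Shp2*-/- 2.

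With SHP099, 3 of the 37 cell cycle genes passed. *Ccnd2* fell and *Cdk2* and *Cdkn1b* rose, which is 8.11% of the 37 beside 6.96% of all genes (4.55% higher and 2.41% lower). At an unadjusted p under 0.05 there were 7 of 37, beside 26.7% of all genes, and voom on the recovered reads gave 3. The groups were wholly apart in 6 genes, beside 34.6% of all genes, with 5 higher (*Cdk2*, *Pcna*, *Mcm3*, *Cdkn1a* and *Cdkn1b*, beside 27.9%) and 1 lower (*Ccnd2*, beside 6.77%). The median log2 fold change was 0.17 against 0.13 over all genes, and 0.07 against 0.00 with the median of ratios. It was -0.09 without wild type 3 and -0.06 without SHP099 1, and 0.38 without wild type 2 and 0.33 without SHP099 3. Left out in turn, wild type 1, wild type 2 and SHP099 1, 2 and 3 each reduced the 3 genes to 1, *Ccnd2*, whereas without wild type 3 there were 4, with *Cdkn1a* as the added gene. Over all genes, 797 passed, and the count was 284 without wild type 1, 399 without wild type 2, 1273 without wild type 3, and 90, 47 and 116 without SHP099 1, 2 and 3. Both comparisons use the same 3 wild-type libraries, so they are not independent.

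The M-*Shp2*-/- and SHP099 groups were also compared with each other, since both bear on SHP2. No cell cycle gene passed (limma, 0 of 37, beside 0.0699% of all genes, 0.0262% higher and 0.0437% lower in M-*Shp2*-/-), with 5 at an unadjusted p under 0.05, beside 12.6% of all genes, and 0 with voom. In 5 genes the groups did not overlap, *Cdk4*, *Ccnd2* and *Myc* with all M-*Shp2*-/- libraries above and *Cdkn1a* and *Cdkn1b* with all below, beside 17.7% of all genes (7.9% above and 9.76% below). The counts of this comparison changed with each library left out. Without M-*Shp2*-/- 3, 4 of the 37 genes passed (*Ccnd2*, *Cdkn1a*, *Cdkn1b* and *Cdkn1c*) and 2277 of all genes did, against 8 with all libraries. Without M-*Shp2*-/- 2 the count over all genes was 2, and without any of the other 4 libraries it was 0. The median of the 37 genes was 0.23 against 0.02 over all genes. It was -0.01 without M-*Shp2*-/- 3, 0.41 without M-*Shp2*-/- 2, 0.51 without SHP099 1 and 0.08 without SHP099 3. With the adjusted p held to 0.005 and a change of 1 or more in either direction on the log2 scale, limma gave 0 of the 37 genes in each of the 3 comparisons, beside 0.00873%, 0.166% and 0.0% of all genes in the order given. Voom also gave 0 at these thresholds.

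**Figure D1:**
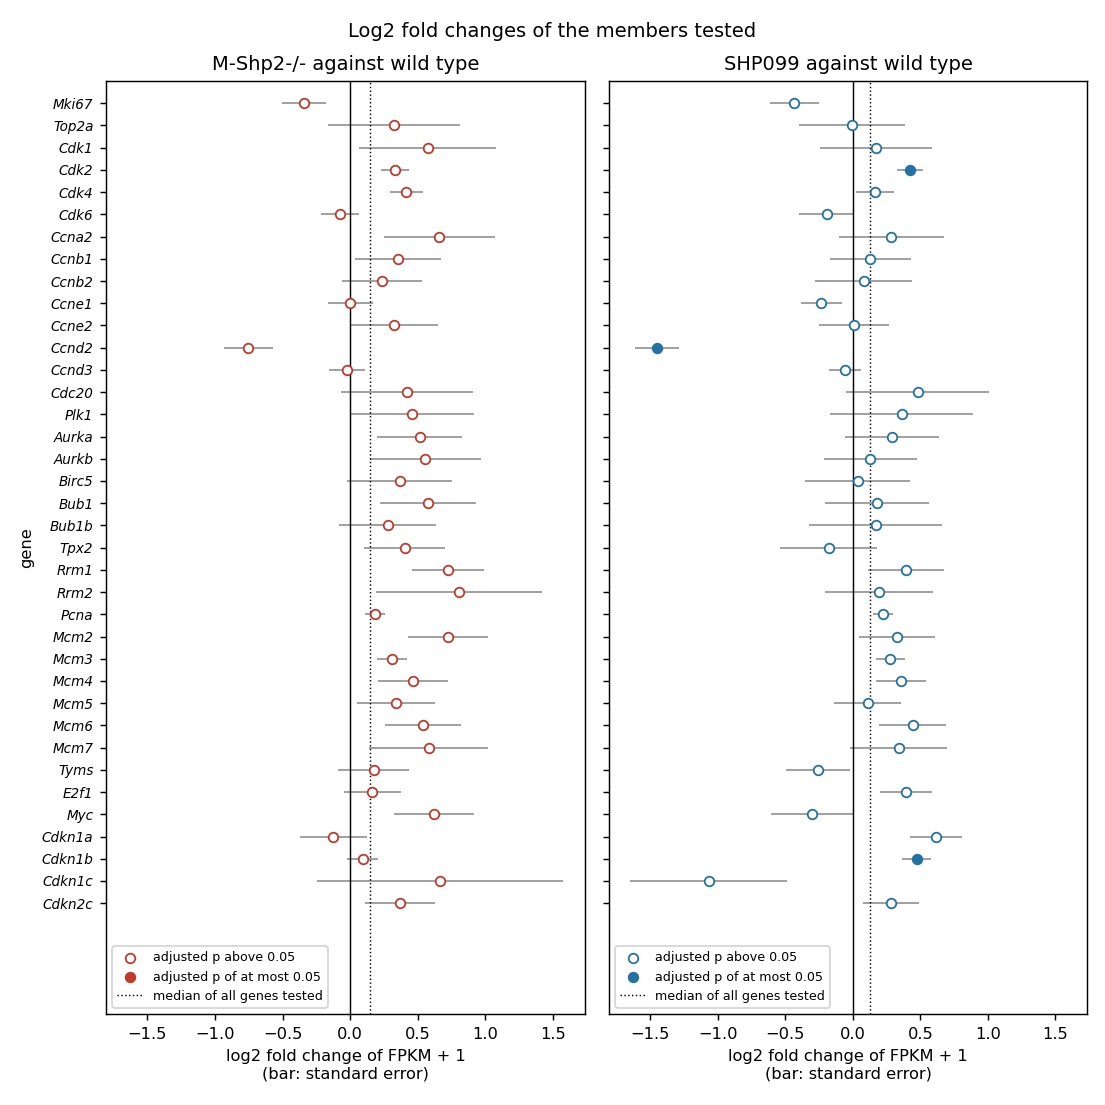
Log2 fold change of FPKM + 1 (horizontal axis) of the 37 cell cycle genes tested (vertical axis), in M-*Shp2*-/- against wild type and in SHP099 against wild type, with n = 3 libraries per group. Points are estimates, bars are standard errors, filled points passed at an adjusted p of at most 0.05 (*Cdk2*, *Ccnd2* and *Cdkn1b* with SHP099, none in M-*Shp2*-/-), and the dotted line is the median of all genes tested, 0.15 and 0.13.

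Within each group, most of these genes were highest in the same library. Wild type 2 was the highest wild-type library in 29 of the 37 genes, M-*Shp2*-/- 3 the highest of its group in 30 and SHP099 1 in 29, while over all genes tested these libraries were highest in 36.9%, 31.4% and 45.8%. Wild type 3, M-*Shp2*-/- 2 and SHP099 3 were the lowest in 29, 31 and 31 of the 37 genes, beside 62.8%, 31.1% and 55.2% of all genes. All 5 A, B and E cyclins and all 8 mitotic regulators tested had their highest value in wild type 2, M-*Shp2*-/- 3 and SHP099 1, as did 9, 10 and 9 of the 10 replication genes. The 5 fibroblast and 2 mesothelial markers tested were highest in these libraries too. The mesothelial markers left untested for low means followed this only in part. In the SHP099 group, *Msln*, *Upk3b* and *Krt19* were highest in SHP099 2, at an FPKM of 0.772, 0.590 and 0.537 against 0.754, 0.439 and 0.278 in SHP099 1. *Krt19* was also higher in M-*Shp2*-/- 1 than in M-*Shp2*-/- 3, at 0.967 against 0.648. The part of fibroblasts and mesothelial cells in the result was not tested. In RNA from mixed cells, fewer cells of a type and less RNA per cell cannot be told apart.

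**Figure D2:**
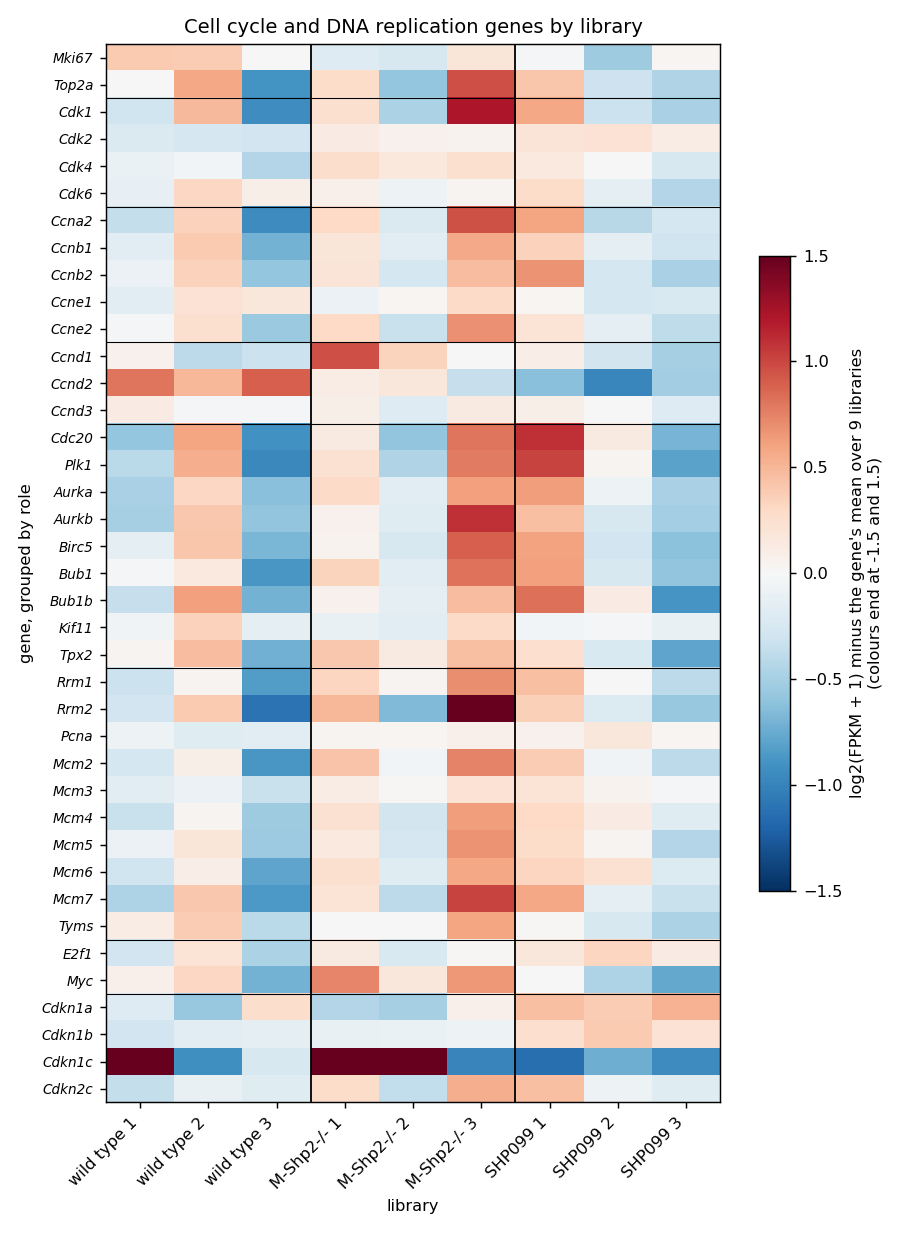
Level of each of the 39 cell cycle genes (vertical axis, by role) in each of the 9 libraries (horizontal axis), as log2(FPKM + 1) minus the mean of that gene over the libraries, with red above and blue below the mean and colours ending at 1.5 in either direction. Most mitotic, cyclin and replication genes were red in wild type 2, M-*Shp2*-/- 3 and SHP099 1, whereas *Ccnd2* was highest in the 3 wild-type libraries.

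**Figure D3:**
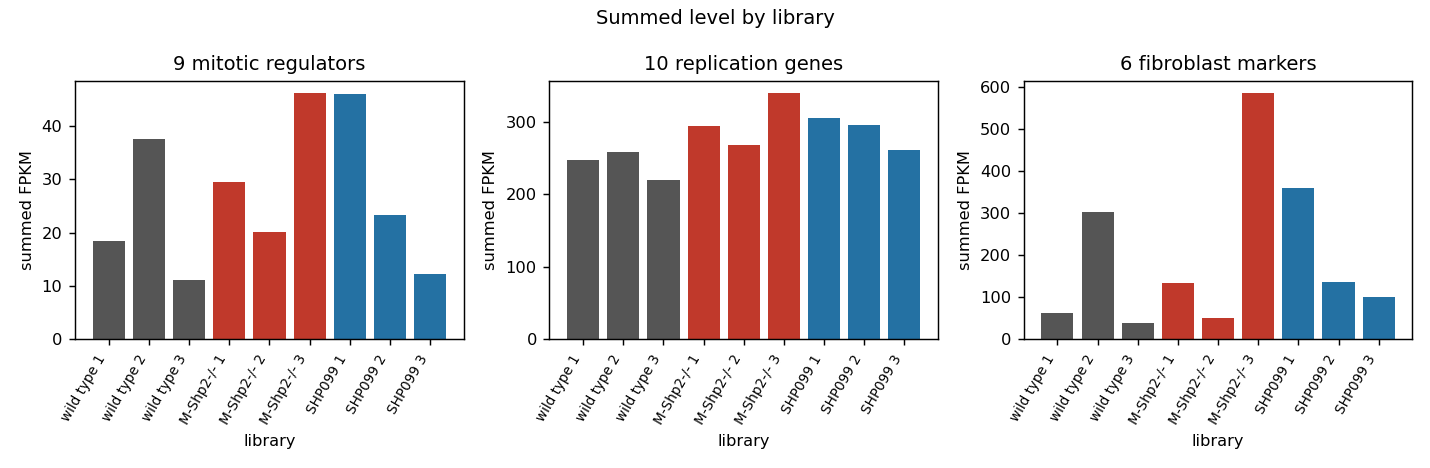
Summed FPKM (vertical axis) of 9 mitotic regulators, 10 replication genes and 6 fibroblast markers in each library (horizontal axis), 1 bar per library. Wild type 2, M-*Shp2*-/- 3 and SHP099 1 had the highest bar of their group in all 3 panels.

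Promoter windows of 300 bases around the annotated start were available from RefSeq (GRCm38.p6) for 30 of the 39 genes, 34 windows in all. They were searched on both strands for E2F-type sites (TTTCCCGC, TTTCGCGC, TTTGCCGC or TTTGGCGC), for the cell cycle genes homology region (CHR; TTTGAA, or else TTCGAA, which reads the same on both strands) and for CCAAT. An E2F-type match was present in 6 of the 30 genes, against 2.6% of the 27025 genes with a window, a CHR match in 12 (40.0%, against 21.7%) and CCAAT in 23 (76.7%, against 41.1%). CHR and CCAAT occurred together in 12 of the 30 genes (40.0%), against 8.61% of all. Among the roles, 6 of the 7 mitotic regulators with a window held both CHR and CCAAT and none an E2F-type match, while 4 of the 9 replication genes held an E2F-type match. These are matches of letters and not measured sites. The 5 windows printed here were chosen after the values and matches were seen: *Cdk2* and *Cdkn1b* passed the test with SHP099, *Mcm3* did not overlap with wild type in either comparison, and *Cdk1* and *Top2a* belong to the genes that were highest in the same libraries. Capitals mark the matches on either strand, none of which overlap, and the windows lie at chr10:128705002-128705301 (minus strand) for *Cdk2*, chr6:134920151-134920450 (plus) for *Cdkn1b*, chr1:20820263-20820562 (minus) for *Mcm3*, chr10:69352863-69353162 (minus) for *Cdk1* and chr11:99024140-99024439 (minus) for *Top2a*.
Cdk2: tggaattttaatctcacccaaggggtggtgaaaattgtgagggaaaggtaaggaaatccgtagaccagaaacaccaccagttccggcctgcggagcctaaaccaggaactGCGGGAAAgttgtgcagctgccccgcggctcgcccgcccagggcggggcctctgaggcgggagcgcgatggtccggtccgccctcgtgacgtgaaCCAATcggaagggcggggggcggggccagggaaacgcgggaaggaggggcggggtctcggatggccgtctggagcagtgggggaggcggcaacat
Cdkn1b: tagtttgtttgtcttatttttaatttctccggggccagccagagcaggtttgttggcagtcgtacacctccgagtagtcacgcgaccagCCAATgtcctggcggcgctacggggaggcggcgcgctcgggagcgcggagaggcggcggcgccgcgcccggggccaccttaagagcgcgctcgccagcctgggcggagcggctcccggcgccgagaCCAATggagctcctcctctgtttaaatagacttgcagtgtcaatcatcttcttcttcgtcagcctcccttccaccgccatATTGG
Mcm3: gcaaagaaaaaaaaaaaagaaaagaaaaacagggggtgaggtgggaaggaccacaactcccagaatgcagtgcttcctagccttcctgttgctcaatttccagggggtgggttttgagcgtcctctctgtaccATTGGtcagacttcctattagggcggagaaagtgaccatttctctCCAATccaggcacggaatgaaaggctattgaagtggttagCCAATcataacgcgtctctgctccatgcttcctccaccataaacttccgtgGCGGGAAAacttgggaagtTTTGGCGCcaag
Cdk1: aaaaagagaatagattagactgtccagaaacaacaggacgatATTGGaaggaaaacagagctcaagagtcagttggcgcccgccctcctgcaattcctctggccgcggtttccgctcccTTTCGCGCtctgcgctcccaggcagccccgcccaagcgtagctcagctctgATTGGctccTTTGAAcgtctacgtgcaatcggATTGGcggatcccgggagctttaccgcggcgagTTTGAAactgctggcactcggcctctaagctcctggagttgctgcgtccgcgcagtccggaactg
Top2a: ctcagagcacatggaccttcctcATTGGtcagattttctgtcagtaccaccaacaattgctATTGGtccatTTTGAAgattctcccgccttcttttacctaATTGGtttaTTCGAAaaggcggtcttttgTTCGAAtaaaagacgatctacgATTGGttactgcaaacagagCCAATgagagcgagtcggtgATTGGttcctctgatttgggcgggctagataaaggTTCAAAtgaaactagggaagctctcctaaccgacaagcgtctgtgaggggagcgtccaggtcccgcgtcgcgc

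The proliferation markers differed from each other. *Mki67*, which encodes the Ki-67 protein on the surface of mitotic chromosomes, had an FPKM of 50.1, 49.5 and 38.1 in the wild-type, 32.9, 32.0 and 43.1 in the M-*Shp2*-/- and 37.5, 25.8 and 38.6 in the SHP099 libraries. The groups overlapped, with 2 wild-type libraries at the top. Its log2 fold change was -0.34 (SE 0.16, adjusted p = 0.478) in M-*Shp2*-/- and -0.43 (SE 0.18, adjusted p = 0.180) with SHP099, the latter -0.25 without SHP099 2. *Top2a*, the topoisomerase that untangles replicated DNA, had 10.5, 16.1 and 5.13 in the wild-type, 12.8, 6.63 and 21.4 in the M-*Shp2*-/- and 14.3, 8.26 and 7.36 in the SHP099 libraries. Its highest values were again in wild type 2, M-*Shp2*-/- 3 and SHP099 1, and its groups overlapped widely. Between the highest and the lowest library the FPKM differed 4.17-fold for *Top2a* and 1.94-fold for *Mki67*. The *Top2a* log2 fold change of 0.33 in M-*Shp2*-/- (adjusted p = 0.745) was -0.07 without wild type 3, -0.05 without M-*Shp2*-/- 3, 0.67 without wild type 2, 0.73 without M-*Shp2*-/- 2 and 0.19 with the median of ratios, and that of -0.01 with SHP099 (adjusted p = 0.993) lay between -0.41, without wild type 3, and 0.34, without wild type 2, over the alternatives.

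Among the kinases, *Cdk2*, the partner of cyclins E and A at the start of replication (ENSMUSG00000025358, chromosome 10 of GRCm38, 128697939 to 128705031), had an FPKM of 8.83, 8.60 and 8.32 in the wild-type, 11.4, 10.9 and 10.9 in the M-*Shp2*-/- and 12.0, 12.2 and 11.3 in the SHP099 libraries. All M-*Shp2*-/- and SHP099 libraries lay above the 3 wild-type libraries, and these 2 groups overlapped each other. *Cdk2* rose with SHP099 from a mean of 8.58 ± 0.257 to 11.8 ± 0.496 (SD, n = 3 per group). The log2 fold change was 0.42 (SE 0.10, adjusted p = 0.0458), or 0.30 above the median of all genes. The call was made in 5 of 14 alternatives, whose adjusted p ranged from 0.0281 to 0.335. The adjusted p was 0.0921 without wild type 1, 0.0992 without wild type 2, 0.185 without SHP099 1, 0.206 without SHP099 2 and 0.104 without SHP099 3, and 0.097 with the median of ratios. For M-*Shp2*-/- it was 0.33 (SE 0.10, adjusted p = 0.455) on the log2 scale, and 0.19 with the median of ratios. Exons of *Cdk2* overlap *Pmel* on the opposite strand. The strand on which reads were counted is not given in the sources used here. Whether *Pmel* reads entered the *Cdk2* values therefore cannot be told.

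*Cdk4*, the kinase of the D cyclins and the most abundant of the 4, had an FPKM of 124, 130 and 97.6 in the wild-type, 160, 148 and 158 in the M-*Shp2*-/- and 147, 133 and 113 in the SHP099 libraries. The M-*Shp2*-/- libraries lay above all others. The log2 fold change against wild type was 0.42 (SE 0.12, adjusted p = 0.454), or 0.27 above the median of all genes and 0.26 with the median of ratios, and *Cdk4* shares exons with *Tspan31* on the opposite strand. *Cdk6*, which has the same partners, ranged from 7.86 to 13.9 with overlapping groups. *Cdk1*, the kinase of mitosis, had 2.73, 5.45 and 1.40 in the wild-type, 4.43, 2.30 and 9.61 in the M-*Shp2*-/- and 5.89, 2.69 and 2.28 in the SHP099 libraries. It differed 6.85-fold between libraries of 73 to 536 reads, its groups overlapped, and its 3 highest values were in M-*Shp2*-/- 3, SHP099 1 and wild type 2. The *Cdk1* log2 fold change was 0.57 (SE 0.51, adjusted p = 0.603) in M-*Shp2*-/-, but 0.13 without M-*Shp2*-/- 3, 0.23 without wild type 3, 0.94 without wild type 2 and 0.97 without M-*Shp2*-/- 2. With SHP099 it was 0.18 (SE 0.41, adjusted p = 0.827), and -0.17 without wild type 3, -0.15 without SHP099 1, 0.55 without wild type 2, 0.30 without SHP099 2, 0.38 without SHP099 3 and 0.07 with the median of ratios.

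None of the 5 cyclins of the A, B and E types passed (limma, 0 in each of the 3 comparisons, and 0 with voom), beside 0.0873%, 6.96% and 0.0699% of all genes for M-*Shp2*-/- and SHP099 against wild type and for M-*Shp2*-/- against SHP099. At an unadjusted p under 0.05 there were also 0, beside 10.5%, 26.7% and 12.6% of all genes. *Ccne1*, the partner of CDK2, was the most abundant, with an FPKM of 5.28, 7.14 and 6.83 in the wild-type, 5.58, 6.14 and 7.56 in the M-*Shp2*-/- and 6.12, 4.81 and 4.95 in the SHP099 libraries. Its groups overlapped, and the log2 fold change in M-*Shp2*-/-, 0.00, was -0.13 with the median of ratios, -0.11 without wild type 1, -0.10 without M-*Shp2*-/- 3 and 0.09 without M-*Shp2*-/- 1. *Ccna2*, the A cyclin of replication and entry into mitosis, ranged from 0.775 in wild type 3 to 5.60 in M-*Shp2*-/- 3, and *Ccnb1*, the main mitotic cyclin, from 2.65 to 7.90 in the same libraries. *Ccnb2* ranged from 0.968 in wild type 3 to 3.71 in SHP099 1, and *Ccne2* from 0.428 in wild type 3 to 2.37 in M-*Shp2*-/- 3, on 28 to 166 reads.

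The D cyclins, which couple growth signals to the cycle, included *Ccnd2*, with the largest log2 fold change of FPKM + 1 of the 37 with SHP099. The ratio of mean FPKM to wild type was lower for *Cdkn1c*, at 0.165 against 0.332 for *Ccnd2*. *Ccnd2* (ENSMUSG00000000184, chromosome 6 of GRCm38, 127125162 to 127152193) had an FPKM of 18.7, 14.9 and 19.9 in the wild-type, 11.1, 11.7 and 7.90 in the M-*Shp2*-/- and 6.28, 4.70 and 6.82 in the SHP099 libraries. No group overlapped another: wild type was highest, M-*Shp2*-/- intermediate and SHP099 lowest. The summed FPKM of the 5 mast cell markers separated the groups in the same order, at 6.10, 4.76 and 6.01 in the wild-type, 2.76, 3.19 and 1.60 in the M-*Shp2*-/- and 0.675, 0.564 and 0.970 in the SHP099 libraries, with *Kit* as the most abundant, *Cpa3*, *Mcpt4*, *Tpsb2* and *Cma1* at means below 1 and none listed at 0 in all libraries. Without *Kit*, the M-*Shp2*-/- and SHP099 sums overlapped. The part of these cells in the *Ccnd2* result was not tested. *Ccnd2* fell with SHP099 from a mean of 17.9 ± 2.60 to 5.93 ± 1.10 (SD, n = 3 per group). The log2 fold change was -1.45 (SE 0.16, adjusted p = 0.00911), or -1.57 relative to the median of all genes. It passed in 13 of 14 alternatives, with log2 fold changes of -1.61 to -1.31, and missed the threshold without a filter on low FPKM (adjusted p = 0.0599, the highest of 0.00731 to 0.0599). In M-*Shp2*-/-, with a mean of 10.2 ± 2.05 (SD, n = 3), the log2 fold change of -0.75 (SE 0.18) did not pass (adjusted p = 0.412, 0.184 to 0.89 over the alternatives). The difference between M-*Shp2*-/- and SHP099, 0.69 (SE 0.19, adjusted p = 0.279), was 0.85 with an adjusted p of 0.0139 without M-*Shp2*-/- 3 (0.0139 to 0.749 over the alternatives). The antisense genes *9330179D12Rik* and *Gm43126* overlap exons of *Ccnd2*. Because the counting strand is not given, whether their reads entered the *Ccnd2* values cannot be told.

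*Ccnd3* was similar in level but did not follow *Ccnd2*, at 8.07 to 10.4 over the 9 libraries with overlapping groups (log2 fold changes of -0.02 and -0.06 against wild type). *Ccnd1* was low, at 0.644, 0.197 and 0.259 in the wild-type, 2.08, 0.987 and 0.572 in the M-*Shp2*-/- and 0.686, 0.302 and 0.114 in the SHP099 libraries, on 10 to 179 reads. Its highest values were in M-*Shp2*-/- 1 and M-*Shp2*-/- 2, and the groups overlapped. *Ccnd1* shares exons with *LTO1* and *Ccnd3* with *Bysl*, both on the opposite strand.

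**Figure D4:**
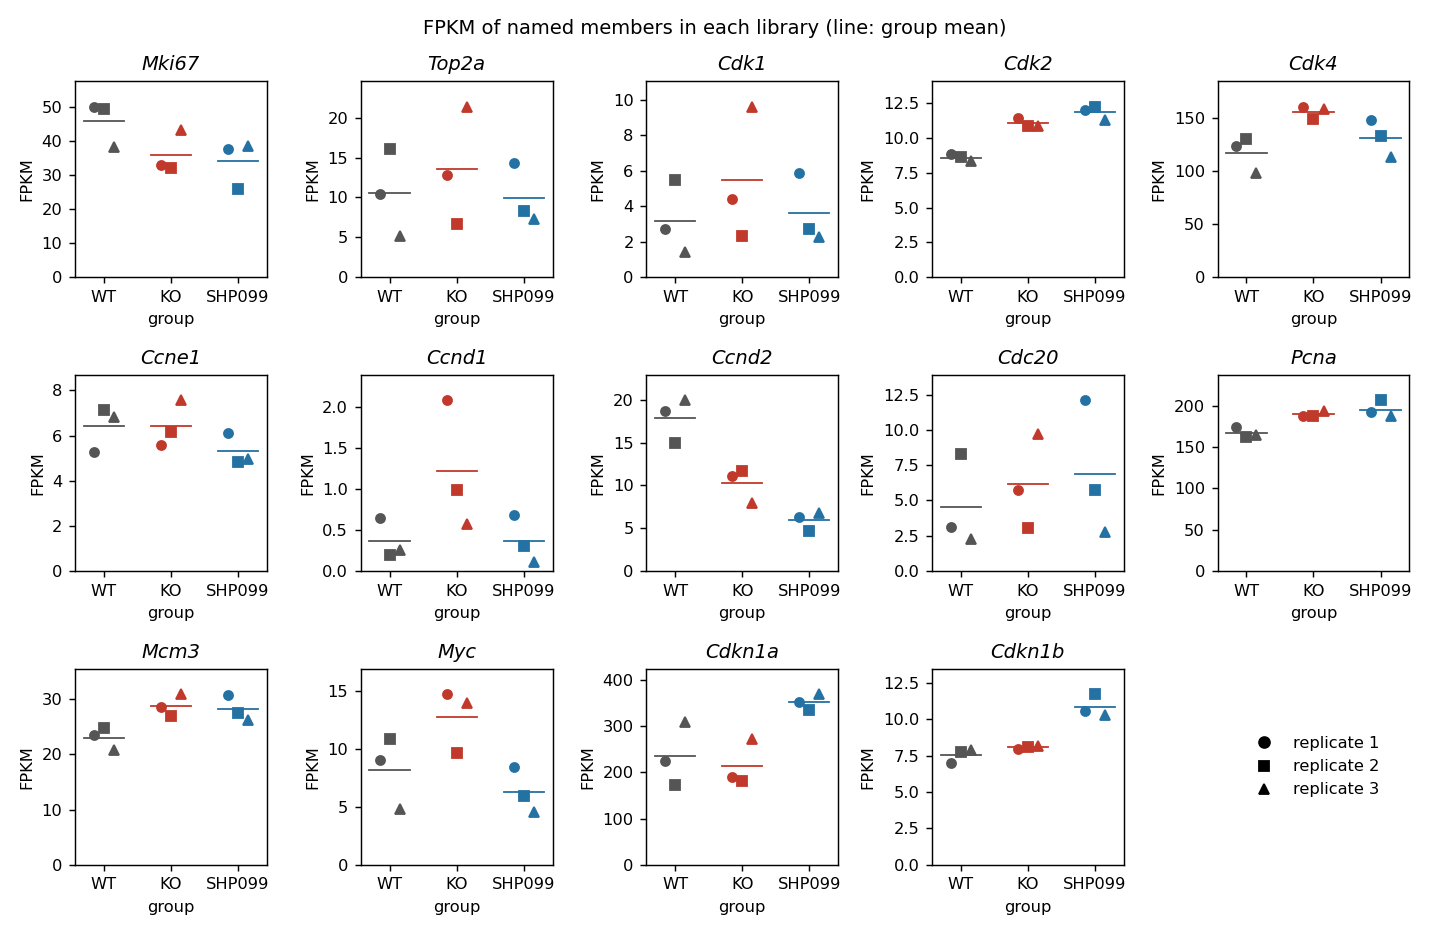
FPKM (vertical axis, from 0) of 14 cell cycle genes in the wild-type (WT), M-*Shp2*-/- (KO) and SHP099 libraries (horizontal axis), 1 point per library with the symbol giving the replicate number and a line at the group mean. *Ccnd2* fell from 14.9 to 19.9 in wild type to 4.70 to 6.82 with SHP099, *Cdk2* and *Cdkn1b* rose with SHP099, and the groups of *Top2a*, *Cdk1* and *Cdc20* overlapped.

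The regulators of mitosis varied widely between the libraries of each group. Their summed FPKM over 9 genes was 18.4, 37.6 and 11.1 in the wild-type, 29.5, 20.1 and 46.0 in the M-*Shp2*-/- and 45.9, 23.3 and 12.2 in the SHP099 libraries. Each group thus held both low and high libraries. None of the 8 genes tested passed (limma, 0 in each of the 3 comparisons, 0 at an unadjusted p under 0.05 and 0 with voom). Of all genes, 0.0873%, 6.96% and 0.0699% passed in M-*Shp2*-/- and SHP099 against wild type and in M-*Shp2*-/- against SHP099, and 10.5%, 26.7% and 12.6% had an unadjusted p under 0.05. In none of the 8 genes were the groups separate in any of these comparisons, beside 19.1%, 34.6% and 17.7% of all genes. *Cdc20*, which activates the anaphase-promoting complex, was the most abundant, with 3.09, 8.27 and 2.26 in the wild-type, 5.76, 3.07 and 9.73 in the M-*Shp2*-/- and 12.1, 5.75 and 2.79 in the SHP099 libraries. Its groups overlapped, with the highest value in SHP099 1, and its log2 fold changes against wild type of 0.42 and 0.48 had standard errors of 0.49 and 0.53. Single libraries moved both values. The 0.42 in M-*Shp2*-/- was 0.07 without M-*Shp2*-/- 3, 0.11 without wild type 3, 0.28 without wild type 1, 0.77 without M-*Shp2*-/- 2 and 0.87 without wild type 2, and the 0.48 with SHP099 was 0.02 without SHP099 1, 0.17 without wild type 3, 0.92 without SHP099 3 and 0.93 without wild type 2. Between the lowest and the highest library, *Plk1*, a kinase of mitotic entry and spindle assembly, ranged 6.82-fold from 1.03 upwards, *Aurka*, the kinase of the spindle poles, from 1.08 to 3.96, and *Aurkb*, the kinase of the chromosomal passenger complex, from 1.43 to 6.86. *Birc5*, the survivin subunit of that complex, ranged from 0.450 to 3.33, *Bub1* from 0.342 to 3.31 and *Bub1b* 4.81-fold up to 7.22, both of the spindle checkpoint. *Tpx2*, a spindle assembly factor, ranged from 2.53 to 7.35. *Kif11*, the spindle motor, was not tested, at 0.0101 to 0.440 on 2 to 89 reads. *Cdc20* shares exons with *Elovl1* on the opposite strand.

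The replication genes were higher in level. Their summed FPKM over 10 genes was 248, 258 and 220 in the wild-type, 294, 268 and 339 in the M-*Shp2*-/- and 305, 296 and 261 in the SHP099 libraries. All M-*Shp2*-/- and SHP099 sums lay above the 3 wild-type sums, but most of each sum came from *Pcna*. Without *Pcna* the sum over 9 genes was 73.9, 96.3 and 55.0 in the wild-type, 105.7, 80.7 and 146.1 in the M-*Shp2*-/- and 113.5, 89.7 and 73.5 in the SHP099 libraries, and the groups overlapped. Against wild type, 2 of the 10 genes, *Pcna* and *Mcm3*, lay wholly above in M-*Shp2*-/- and 2, again *Pcna* and *Mcm3*, with SHP099, beside 16.0% and 27.9% of all genes. None of the 10 genes passed (limma, 0 in each comparison, and 0 with voom), beside 0.0873%, 6.96% and 0.0699% of all genes, with an unadjusted p under 0.05 for 3 in M-*Shp2*-/- and 2 with SHP099 against wild type and for 0 between these groups, beside 10.5%, 26.7% and 12.6% of all genes. *Pcna*, the sliding clamp of the DNA polymerases, had an FPKM of 174, 162 and 165 in the wild-type, 188, 188 and 193 in the M-*Shp2*-/- and 192, 206 and 188 in the SHP099 libraries. The wild-type libraries were the 3 lowest. For *Pcna* the log2 fold change was 0.18 (SE 0.08, adjusted p = 0.477) in M-*Shp2*-/- and 0.22 (SE 0.08, adjusted p = 0.115) with SHP099, only 0.04 and 0.10 above the median of all genes and 0.03 and 0.08 with the median of ratios.

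*Mcm3*, a subunit of the replicative helicase, had 23.5, 24.7 and 20.8 in the wild-type, 28.6, 26.8 and 30.9 in the M-*Shp2*-/- and 30.8, 27.5 and 26.2 in the SHP099 libraries. Again the wild-type libraries were the 3 lowest. The log2 fold changes were 0.31 (SE 0.11, adjusted p = 0.465) and 0.28 (SE 0.11, adjusted p = 0.148), and 0.16 and 0.14 with the median of ratios. The other helicase subunits *Mcm2*, *Mcm4*, *Mcm5*, *Mcm6* and *Mcm7* lay between 3.78 and 17.6 and overlapped between groups, each highest in M-*Shp2*-/- 3. *Rrm1* and *Rrm2*, the subunits of ribonucleotide reductase, ranged from 5.74 to 18.6 and from 1.68 to 16.3, and *Rrm2* thus differed 9.72-fold between libraries. *Tyms*, thymidylate synthase, ranged from 2.60 to 6.56. *Mcm7* shares exons with *Cops6* and *Ap4m1* on the opposite strand and with 2 microRNA genes on its own.

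Of the transcription factors, *Myc*, which drives growth and entry into the cycle, had an FPKM of 9.01, 10.8 and 4.80 in the wild-type, 14.7, 9.65 and 13.9 in the M-*Shp2*-/- and 8.44, 5.91 and 4.59 in the SHP099 libraries. The M-*Shp2*-/- libraries lay above the SHP099 libraries, and both groups overlapped wild type. Against wild type, the log2 fold change was 0.62 (SE 0.29, adjusted p = 0.478) in M-*Shp2*-/- and -0.30 (SE 0.30, adjusted p = 0.571) with SHP099. The first was 0.32 without wild type 3, and the second -0.61 without wild type 3, -0.51 without SHP099 1, -0.13 without SHP099 3 and -0.09 without wild type 2. The *Myc* difference between M-*Shp2*-/- and SHP099 was 0.93 (SE 0.23, adjusted p = 0.278), and passed in 1 of 14 alternatives, without the libraries highest in fibroblast markers (chosen after seeing the data, adjusted p = 0.0241, the lowest of 0.0241 to 0.749). *E2f1*, an activator of replication genes, ranged from 3.80 in wild type 3 to 7.37 in SHP099 2, with overlapping groups and log2 fold changes of 0.17 (M-*Shp2*-/-) and 0.39 (SHP099, adjusted p = 0.235).

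The CDK inhibitors included the most abundant of the 39 genes, *Cdkn1a*, which encodes p21. Its FPKM was 224, 174 and 310 in the wild-type, 189, 181 and 272 in the M-*Shp2*-/- and 352, 336 and 370 in the SHP099 libraries. The SHP099 libraries lay above all others, while wild type and M-*Shp2*-/- overlapped. With SHP099 the log2 fold change was 0.62 (SE 0.19) and did not pass (adjusted p = 0.101), but was 0.83 with an adjusted p of 0.0156 without wild type 3 (0.0156 to 0.355 over the alternatives). Against SHP099, the log2 fold change of M-*Shp2*-/- was -0.74 (SE 0.16, adjusted p = 0.230), and -0.92 with an adjusted p of 0.0015 without M-*Shp2*-/- 3 (0.0015 to 0.724 over the alternatives). *Cdkn1a* shares exons with *AC167363.2* on the opposite strand.

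*Cdkn1b*, which encodes p27 (ENSMUSG00000003031, chromosome 6 of GRCm38, 134920401 to 134925513), had an FPKM of 6.97, 7.72 and 7.87 in the wild-type, 7.97, 8.07 and 8.18 in the M-*Shp2*-/- and 10.5, 11.7 and 10.3 in the SHP099 libraries. The 3 groups did not overlap, although M-*Shp2*-/- lay close above wild type. *Cdkn1b* rose with SHP099 from a mean of 7.52 ± 0.483 to 10.8 ± 0.756 (SD, n = 3 per group). The log2 fold change was 0.47 (SE 0.11, adjusted p = 0.0458), or 0.35 above the median of all genes. As for *Cdk2*, the call was made in 5 of 14 alternatives, with an adjusted p of 0.0281 to 0.278. The adjusted p was 0.109 without wild type 1, 0.0894 without wild type 2, 0.163 without SHP099 1, 0.207 without SHP099 2 and 0.104 without SHP099 3, and 0.137 with the median of ratios. For M-*Shp2*-/- the log2 fold change was 0.09 (SE 0.11, adjusted p = 0.690), -0.05 with the median of ratios and 0.05 without wild type 1. Between M-*Shp2*-/- and SHP099 it was -0.38 (SE 0.09, adjusted p = 0.273), and -0.39 with an adjusted p of 0.0326 without M-*Shp2*-/- 3 (0.0326 to 0.749 over the alternatives).

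*Cdkn1c*, which encodes p57 and is described in full after its values were seen, split the libraries in another way. Its FPKM was 7.55, 0.525 and 1.45 in the wild-type, 8.02, 8.74 and 0.450 in the M-*Shp2*-/- and 0.325, 0.740 and 0.509 in the SHP099 libraries. It was high in wild type 1, M-*Shp2*-/- 1 and M-*Shp2*-/- 2 and low in the other 6 libraries, a range of 26.9-fold on 16 to 403 reads. The log2 fold change of M-*Shp2*-/- against SHP099 was 1.73 (SE 0.71, adjusted p = 0.394), and without M-*Shp2*-/- 3 it was 2.63 (SE 0.17, adjusted p = 0.00127), so that *Cdkn1c* alone of the 37 genes then met the stricter thresholds. A marker of another cell type moved in part with it. *Kit*, the most abundant mast cell marker, was 4.51, 0.968 and 1.19 in the wild-type, 1.40, 2.94 and 0.176 in the M-*Shp2*-/- and 0.356, 0.286 and 0.356 in the SHP099 libraries. The sum of the 5 mast cell markers, given beside *Ccnd2*, did not split the libraries as *Cdkn1c* did. Their part in the result was not tested. *Cdkn1c* shares exons with *Gm44732* on the opposite strand. *Cdkn2c*, which encodes p18, ranged from 1.10 to 2.98 with overlapping groups.

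Wider lists of genes of the same pathways gave few further calls, all with SHP099 against wild type. They are given with all libraries only. In M-*Shp2*-/- against wild type and against SHP099, none of these lists held a gene that passed (limma, beside 0.0873% and 0.0699% of all genes), while voom called 1, *Odc1*, between M-*Shp2*-/- and SHP099. Of 24 S phase genes tested (34 listed), 1 rose and 0 fell (4.17%, beside 6.96% of all genes), with 6 at an unadjusted p under 0.05 in M-*Shp2*-/- and 6 with SHP099, beside 10.5% and 26.7% of all genes. The gene was *Nasp*, a histone chaperone, with an FPKM of 13.2, 15.0 and 12.5 in the wild-type, 17.7, 14.6 and 22.8 in the M-*Shp2*-/- and 20.6, 22.9 and 18.2 in the SHP099 libraries (log2 fold change with SHP099 0.57, SE 0.12, adjusted p = 0.0390). The SHP099 libraries lay above wild type, and M-*Shp2*-/- overlapped both groups. The median log2 fold change of the list was 0.42 in M-*Shp2*-/- and 0.23 with SHP099, beside 0.15 and 0.13 over all genes. Of 36 genes of the G2 and M phases tested (43 listed), 0 passed (limma, and 0 with voom), with 1 and 2 at an unadjusted p under 0.05 in these comparisons, beside the same 10.5% and 26.7%, and the medians were 0.34 and 0.12. *Tubb4b*, a tubulin and the most abundant of them, had an FPKM of 76.4 to 150.0 with overlapping groups.

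Among 14 E2F and pocket protein genes tested (17 listed), 1 rose and 1 fell with SHP099 (14.3%, beside 6.96% of all genes), and 7 had an unadjusted p under 0.05, beside 26.7%. Voom called 3 of them, with *Lin54*, named after its values were seen, as the added gene (log2 fold change 0.39, adjusted p = 0.0688 on the FPKM scale). *Rb1*, the retinoblastoma protein that holds E2F in check, had an FPKM of 16.5, 15.2 and 12.5 in the wild-type, 20.9, 22.2 and 19.1 in the M-*Shp2*-/- and 21.8, 22.3 and 21.1 in the SHP099 libraries. The wild-type libraries were the 3 lowest. *Rb1* rose with SHP099 (log2 fold change 0.54, SE 0.12, adjusted p = 0.0419), and in M-*Shp2*-/- the value was 0.47 (SE 0.13, adjusted p = 0.454). *E2f5*, a repressor of the E2F family, fell from a mean of 11.3 ± 0.326 to 7.17 ± 0.221 with SHP099 (SD, n = 3 per group; log2 fold change -0.60, SE 0.10, adjusted p = 0.0222). Of 11 other inhibitors and regulators of CDKs tested (14 listed), 0 passed (limma, and 0 with voom), with 1 and 3 at an unadjusted p under 0.05, beside 10.5% and 26.7%. *Fzr1*, the other activator of the anaphase-promoting complex, was the most abundant at 28.5 to 40.0, and *Skp2* was listed at 0 in all 9 libraries.

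Of 13 genes of p53 and its targets, 1 rose with SHP099 and 0 fell (7.69%, beside 6.96% of all genes), and 6 had an unadjusted p under 0.05, beside 26.7%. The gene that rose was *Bbc3*, a promoter of apoptosis, at 10.6, 11.7 and 13.7 in the wild-type, 11.9, 12.7 and 22.7 in the M-*Shp2*-/- and 24.3, 19.1 and 20.5 in the SHP099 libraries (log2 fold change 0.78, SE 0.13, adjusted p = 0.0242). M-*Shp2*-/- 3 lay in the range of the SHP099 libraries, and M-*Shp2*-/- 1 and M-*Shp2*-/- 2 in that of wild type. Of 8 genes of the MYC network tested (10 listed), 2 rose with SHP099, *Mxd4* and *Mnt*, which both encode repressors that compete with MYC for its partner MAX. This is 25.0% of the list beside 6.96% of all genes, and 3 had an unadjusted p under 0.05, beside 26.7%. *Mxd4* rose from a mean of 1.69 ± 0.416 to 4.19 ± 0.588 (SD, n = 3 per group; log2 fold change 0.96, SE 0.17, adjusted p = 0.0262) and *Mnt* from 25.4 ± 3.70 to 39.7 ± 1.10 (log2 fold change 0.64, SE 0.12, adjusted p = 0.0282). Both were high in M-*Shp2*-/- 3 as well, at 3.81 and 44.7.

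Of 14 growth genes linked to MYC, all tested, 1 fell with SHP099 and 0 rose (7.14%, beside 6.96% of all genes), and 2 had an unadjusted p under 0.05, beside 26.7%. *Odc1*, the first enzyme of polyamine synthesis, had an FPKM of 148, 151 and 110 in the wild-type, 126, 106 and 111 in the M-*Shp2*-/- and 65.0, 54.9 and 62.5 in the SHP099 libraries. The SHP099 libraries lay below all others. Its log2 fold change was -1.14 (SE 0.14, adjusted p = 0.0116) with SHP099 and -0.24 (adjusted p = 0.518) in M-*Shp2*-/-, and M-*Shp2*-/- exceeded SHP099 by 0.90 (adjusted p = 0.0555), just outside the threshold.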

How the data were processed

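RNA was sequenced from 9 libraries of peritoneal macrophages, 3 per group. The authors' processing used CASAVA 1.8, HISAT2 2.0.4 and HTSeq 0.9.1, and the FPKM values were computed by the authors and used as deposited. The strand on which reads were counted is not given in the sources used here. Symbols came from GENCODE M21 by Ensembl identifier. Of 5235 gene spans in the authors' table, 91.7% were identical there, which places the data on GRCm38.

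Whole reads were recovered from the steps of low FPKM values: 96.3 to 96.7% of values up to 50 reads lay within 0.05 of a whole number. Groups, taken from the labels, were compared with limma 3.58.1 in R 4.3.3 (lmFit, then eBayes with a trend) on log2(FPKM + 1), over genes averaging an FPKM of 1, with Benjamini-Hochberg adjustment over all 11450. The fit was tested on simulated data. The stricter thresholds are those in the study's methods. Tables were made with pandas 2.3.3 and plots with matplotlib 3.10.9 (Python 3.11.15).

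The members and the lists (S phase; G2 and M phase; E2F and pocket proteins; other CDK regulators; p53 and targets; MYC network; MYC-linked growth genes; markers of 10 cell types) were chosen with earlier results of these data known. Every member is named by role, with values in each library for those that passed a test, those separate from wild type in both comparisons, the most abundant of each role, and *Mki67*, *Top2a*, *Cdk1*, *Ccnd1*, *Myc* and *Cdkn1a*. From each list, up to 4 genes of smallest adjusted p that passed are named, or else the most abundant, with *Ptpn11* and *Lyz2* as checks. Not every marker gene that passed a test is reported here. The promoter windows printed were chosen after values were seen.

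Alternatives were a pseudocount of 0.1, no filter, a minimum mean FPKM of 5, median-of-ratios scaling, all 9 libraries in one fit, a replicate block, voom on the recovered reads and each library left out in turn. After the data were seen, leaving out the library of each group with the highest fibroblast marker sum was added.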

Additional observations from a re-analysis of the deposited data

How the results depend on the processing

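For M-*Shp2*-/- against wild type, the count of cell cycle genes passing was 0 under all 14 alternatives. The 10 genes passing among all genes became 2 with the replicate block, 1 to 8 with a library left out, and 2 without the libraries highest in fibroblast markers, an alternative chosen after seeing the data. With SHP099 against wild type, the 3 cell cycle genes became 0 without a filter on low FPKM, 1 with median-of-ratios scaling, 1 with the replicate block, 1 to 4 with a library left out and 1 without the libraries highest in fibroblast markers. Over all genes, the 797 became 74 without a filter (of 26663 genes tested), 47 to 1273 with a library left out and 50 without the libraries highest in fibroblast markers. For M-*Shp2*-/- against SHP099, the count of cell cycle genes was 0 to 4 with a library left out and 4 without the libraries highest in fibroblast markers (*Ccnd2*, *Cdkn1a*, *Cdkn1c* and *Myc*), and at the stricter thresholds 0 to 1 and 1. Over all genes, the 8 became 3 without a filter, 17 at a minimum mean FPKM of 5, 3 with all 9 libraries in one fit, 0 with the replicate block, 14 with voom, 0 to 2277 with a library left out and 2054 without the libraries highest in fibroblast markers. The cause was not tested.

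No consistent pairing of the samples by replicate number was seen. The correlations of deviations between libraries of the same number were 0.49, -0.43 and 0.19 (M-*Shp2*-/- and wild type), -0.04, -0.09 and 0.45 (SHP099 and wild type) and -0.01, 0.18 and -0.05 (M-*Shp2*-/- and SHP099). With 3 libraries per group, these values cannot show whether libraries of the same number were prepared together. The replicate block is given only here. With it, the adjusted p with SHP099 was 0.014 for *Ccnd2*, 0.0673 for *Cdk2* and 0.0652 for *Cdkn1b*.

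Several log2 fold changes changed sign. In M-*Shp2*-/- against wild type, *Ccne1* was -0.134 with median-of-ratios scaling, -0.033 without the libraries highest in fibroblast markers and -0.113 to 0.085 with a library left out, and *Cdkn1b* was -0.048 with median-of-ratios scaling. With a library left out, *Top2a* was -0.073 to 0.727 and *Cdkn1a* -0.323 to 0.092. With SHP099 against wild type, *Top2a* was 0.001 at a pseudocount of 0.1, 0.069 without the libraries highest in fibroblast markers and -0.405 to 0.336 with a library left out, *Cdk1* was -0.168 to 0.545, and the median of the cell cycle genes was -0.085 to 0.378. Between M-*Shp2*-/- and SHP099, *Cdc20* was 0.051 without the libraries highest in fibroblast markers. With a library left out, *Cdc20* was -0.499 to 0.396, *Top2a* -0.042 to 0.734, *Cdk1* -0.043 to 0.798, *Mki67* -0.091 to 0.191, *Mcm3* -0.018 to 0.096 and the median of the cell cycle genes -0.011 to 0.505. The cause was not tested. *Cdk1* could not be given at a minimum mean FPKM of 5. Depth limits *Kif11*, *Ccnd1*, *Cdkn1c* and *Bub1*, which had as few as 2, 10, 16 and 18 reads in a library.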

Other observations

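Of the 24 S phase genes tested, 8 lay wholly above wild type in M-*Shp2*-/- and 0 wholly below (33.3%, beside 16.0% and 3.07% of all genes). With SHP099, 7 lay wholly above wild type and 1 wholly below (33.3% in all, beside 34.6% of all genes), which is close to the share over all genes. Among the 8 genes in M-*Shp2*-/- were *Cdca7* and *Tipin*, chosen after their values were seen. *Cdca7*, which takes part in chromatin remodelling, had an FPKM of 1.05 to 2.54 in the wild-type, 4.27 to 5.57 in the M-*Shp2*-/- and 1.46 to 3.67 in the SHP099 libraries. The M-*Shp2*-/- libraries were the 3 highest, and the log2 fold change against wild type was 1.12 (SE 0.23, adjusted p = 0.388). For *Tipin*, a factor of the replication fork, the log2 fold change in M-*Shp2*-/- was 0.64 (SE 0.16, adjusted p = 0.433), and its SHP099 libraries, at 8.51 to 11.8, also lay above wild type, at 5.43 to 8.43 (log2 fold change 0.53, SE 0.18, adjusted p = 0.120). Of the 14 growth genes linked to MYC, 8 had all M-*Shp2*-/- libraries above the SHP099 libraries and 0 had all below, beside 7.9% and 9.76% of all genes, and 5 had an unadjusted p under 0.05, beside 12.6%, with 0 passing in limma and 1, *Odc1*, in voom.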
